A study of Mus musculus with 2 samples.

Results

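Immediate early genes and heat shock genes, 36 in all, were examined in RNA of mouse lung epithelial cells, as a group of genes known to respond to the handling of tissue. The list of 26 immediate early and 10 heat shock genes was given, and members were found through the RefSeq accession of each non-control array probe. Of these, 35 genes had a named probe, among 20660 genes named on the array, and they held 43 of its 27235 named probes. Hspa1b had no probe of its own by this naming. In all, 34 members were well above background, on both arrays in each case, and Egr3 failed that flag in either group.

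The study compared lung epithelial cells labelled Mob1DKO, the double knockout, with wild-type (WT) cells, each with 1 Agilent array of 1 colour and no replicate. Both groups were C57BL/6 mice aged 10 weeks. The name was taken to mean loss of both Mob1a and Mob1b, adaptors of the LATS kinases in the Hippo pathway. The promoter or Cre driver behind the deletion, how cells were dissociated, the time this took and whether animals were pooled are not given in the sources used here.

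Immediate early genes are transcribed within minutes of a stimulus, from transcription factors already present in the cell and without new protein synthesis. Many encode transcription factors (FOS, JUN, EGR, KLF and NR4A proteins), and others encode phosphatases and RNA-binding proteins that shut the same signals off. Heat shock genes encode chaperones, which heat shock factor 1 switches on when unfolded proteins accumulate. Enzymatic dissociation of solid tissue is known to induce both groups.

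Levels are log2 values of the processed spot signal minus the 75th percentile of all non-control probes of the same array, so that 0 marks that percentile. That percentile was a signal of 291 for Mob1DKO and 155 for WT. Pairs of levels are given with Mob1DKO first, and every difference is Mob1DKO minus WT. A gene was called when its difference reached 1 in size (2-fold) and its brighter spot passed the background flag. With 1 array a group there is no test and no p-value. Probes printed at 10 spots gave the technical SD of a single-spot difference, 0.085 over 169 probes above the 75th percentile. This SD comes from repeated spots within the same 2 hybridisations. It leaves out the spread between animals, RNA preparations, labelling reactions, hybridisations and different probes of a gene.

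The labels were first set against the targeted genes and the markers of the tissue. Mob1b stood at −2.98 against −0.98, and Mob1a at −2.49 against −2.56; where these probes lie relative to the deleted parts is not known here. All 13 lung epithelial markers, among them Epcam and Nkx2-1, were well above background on both arrays. Their summed signal, in units of the array's 75th percentile, was 5513 against 8230. Of the 13 differences, 7 lay above 0 and 6 below, and none was called. The club cell gene Scgb1a1 differed by −0.84 and the ciliated cell gene Foxj1 by 0.65. The alveolar type 2 genes did not share a direction, with Sftpc at −0.78, Sftpb at −0.31 and Lamp3 at 0.16. The alveolar type 1 genes Ager and Hopx differed by 0.42 and 0.43. Scgb1a1, Sftpc and Sftpb lay at levels of 8 or more, where the median difference of all genes was −0.20. The housekeeping genes Actb, Rplp0 and Ppia, also at such levels, differed by −0.79, −0.32 and −0.02. The summed signal gives bright genes the most weight. Whether the marker differences go beyond this trend with brightness was not tested. Xist differed by −2.29 and the Y-linked Ddx3y was at least 22.7-fold higher in Mob1DKO, so that sex and genotype cannot be told apart. For WT the 8 spike-in transcripts were brighter by a median of 2.50-fold. They do not enter the scaling used here.

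The promoters of the heat shock members are shown first. These members were listed as heat shock genes, which heat shock factor 1 is known to switch on. Counts of the element that such factors bind therefore describe sequence and are not a test. Heat shock factors bind inverted repeats of a short unit, and GAANNTTC, where N is any base, spells a pair of these units in 1 arrangement and reads the same on both strands. RefSeq windows of 300 bases, from 250 before to 50 after a gene's start (GRCm38.p6), were found for 29 of the 36 members, 21 immediate early and 8 heat shock genes. Egr1, Egr3, Fosl1, Hsp90aa1, Hspa8, Ier2 and Myc had none. The pair of units occurred in 7 of the 8 heat shock genes (Bag3, Hspa1a, Hspa1b, Hspb1, Hspd1, Hspe1 and Hsph1), in 2 of the 21 immediate early genes (Fosl2 and Jun), and in 9.04% of 27025 genes with a window. These 7 are not independent. The windows of the duplicated genes Hspa1a and Hspa1b differed at 4 of 300 bases, and those of Hspd1 and Hspe1, which are transcribed away from each other, shared 285 bases. A longer form, the same pair followed by 2 bases and another GAA, searched on both strands, was found in Hspd1, Hspe1 and Hsph1 and in 0.662% of all genes; each of its matches contains a match to the shorter form. In Hsph1 and Bag3 the match lay after the start site. Upstream stretches of 4 heat shock genes and of Jun follow, 5′ to 3′ along the gene, with the heat shock element in capitals; in Hspe1 a pair of overlapping matches to the longer form is capitalised.
Hspa1a, chr17:34972213-34972300, minus strand: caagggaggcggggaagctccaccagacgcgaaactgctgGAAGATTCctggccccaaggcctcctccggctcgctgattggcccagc
Hspa1b, chr17:34959295-34959382, minus strand: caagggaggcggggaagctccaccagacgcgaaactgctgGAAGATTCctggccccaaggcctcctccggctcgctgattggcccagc
Hspb1, chr5:135887762-135887869, plus strand: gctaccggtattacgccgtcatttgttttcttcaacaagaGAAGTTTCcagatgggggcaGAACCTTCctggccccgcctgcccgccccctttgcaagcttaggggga
Hspe1, chr1:55088019-55088116, plus strand: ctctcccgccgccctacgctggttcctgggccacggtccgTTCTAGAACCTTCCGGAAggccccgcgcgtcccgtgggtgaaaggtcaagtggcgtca
Jun, chr4:95052303-95052390, minus strand: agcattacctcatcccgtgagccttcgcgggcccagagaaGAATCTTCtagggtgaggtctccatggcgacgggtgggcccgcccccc

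The Hspa1a and Hspa1b stretches are the same base for base, with the element 104 bases before the start in both. The Hspe1 element lay 89 bases before its start. It is the same DNA that stands upstream of Hspd1 on the other strand. Among immediate early genes, signals through CREB and through serum response factor are read at the cyclic AMP response element, TGACGTCA, and at the CArG box. The former was found, on either strand, in 3 of 21 immediate early windows (Btg2, Dusp1 and Maff) against 2.03% of all genes, and the latter in 2 of 21 (Egr2 and Zfp36) against 1.81%. The AP-1 site TGANTCA was found in none of the 21 and in Bag3 among the heat shock genes, against 8.97% of all genes. Such matches are descriptions of sequence, and a window without one says only that these letters are not in it. The element is in capitals in these 4 upstream stretches, which show both kinds.
Dusp1, chr17:26508568-26508655, minus strand: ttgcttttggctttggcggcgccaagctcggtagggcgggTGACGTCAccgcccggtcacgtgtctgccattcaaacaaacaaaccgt
Btg2, chr1:134079274-134079361, minus strand: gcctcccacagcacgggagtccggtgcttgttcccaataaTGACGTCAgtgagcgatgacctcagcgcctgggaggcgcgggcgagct
Egr2, chr10:67537454-67537543, plus strand: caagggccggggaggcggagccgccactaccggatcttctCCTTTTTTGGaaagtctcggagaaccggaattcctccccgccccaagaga
Zfp36, chr7:28379237-28379326, minus strand: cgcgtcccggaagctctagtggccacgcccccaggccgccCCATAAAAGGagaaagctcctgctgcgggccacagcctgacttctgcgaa

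Immediate early and heat shock transcripts were detected on both arrays, and none differed between them by 2-fold. On the probe used for each gene, all 34 measured members had a level above 0, that is above the 75th percentile, in both groups. Of 15099 measured genes, under the same choice of probe, 8466 lay above 0 in Mob1DKO and 8458 in WT. Probes differ in brightness for equal RNA, so this count describes the probes and gives no order of the genes. None of the 34 was called higher or lower, where 6.70% of 15099 measured genes were called (3.79% higher and 2.91% lower). Among the 8437 genes above the 75th percentile, the range in which all members lay, 1.37% were called. The members' differences ran from −0.35 (Dusp1) to 0.64 (Ier3), with a median of 0.14, against 0.02 over all measured genes. Of the 34, 24 had a difference above 0 and 10 below, where 53.3% of all measured genes lay above 0. The RNA is a bulk measurement, in which fewer cells of a type and less RNA per cell cannot be told apart.

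**Figure D1:**
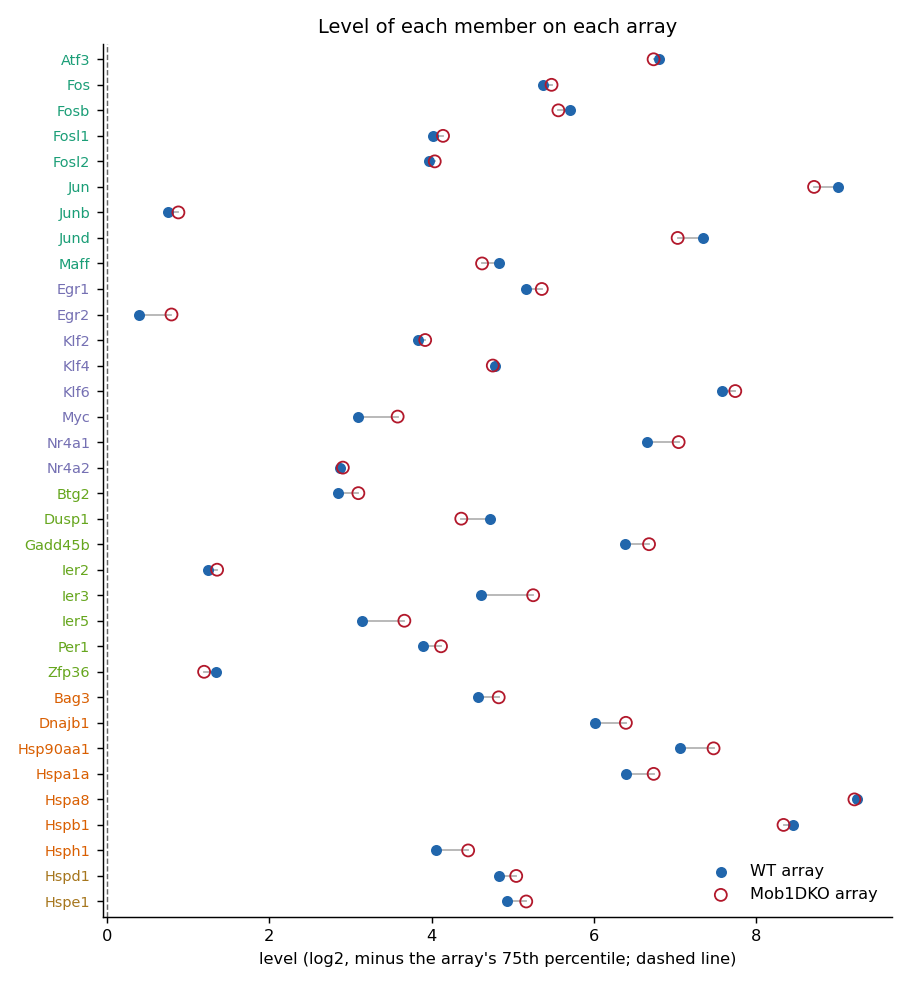
Level of each of 34 members (log2 of the processed signal minus the array's 75th percentile, dashed line) on the WT array (filled blue) and the Mob1DKO array (open red), with names coloured by role and 1 array per group. Every member lies to the right of the dashed line in both groups, and the widest gap, that of Ier3, is 0.64.

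The AP-1 family, dimers of FOS, JUN, ATF and MAF proteins that bind a shared DNA site, was represented by 9 genes, all measured. Fos, the classic immediate early gene, was at 5.48 against 5.38, a difference of 0.10. Its probe was printed at 10 spots, which gives the best resolved value among the members. The spots ran from 5.38 to 5.54, with a median of 5.49, on the Mob1DKO side, and from 5.31 to 5.42, with a median of 5.38, in WT. The difference at the same position was 0.10 ± 0.059 (SD of 10 spots) and above 0 at 9 of them, while the spots of both arrays overlap. These spots repeat the hybridisation of 1 RNA sample and are not replicates. Fosb, a second FOS protein, was at 5.56 against 5.70 (−0.14). Fosl1 and Fosl2, the FOS-related proteins FRA1 and FRA2, differed by 0.12 and 0.07. A second, dimmer Fosl2 probe differed by −0.14.

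**Figure D2:**
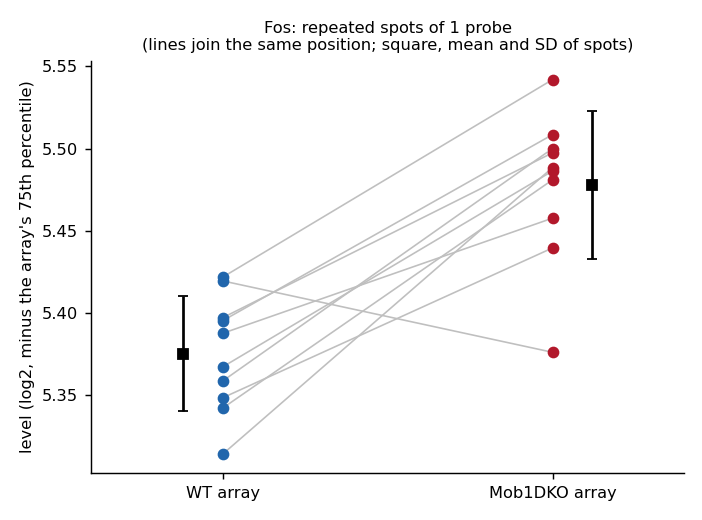
Level (log2, minus the array's 75th percentile) of the 10 spots that carry the Fos probe on the WT array (blue) and the Mob1DKO array (red); lines join the same grid position, and squares with bars give the mean and SD of the spots. The difference was above 0 at 9 of 10 positions, and its mean of 0.10 lies below the 2-fold rule of 1.

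The JUN proteins, which pair with FOS proteins, did not share a direction. Jun stood at 8.72 against 9.01 (−0.30) and Jund at 7.03 against 7.34 (−0.31), both higher in WT by over 3 technical SDs, whereas Junb stood at 0.88 against 0.75 (0.13). Atf3, a stress-induced repressor, was at 6.74 against 6.81 (−0.07). Maff, a small MAF protein, was at 4.62 against 4.83 (−0.21). As a group the AP-1 genes had 4 differences above 0 and 5 below, with a median of −0.07. Differences of more than 2 technical SDs (over 0.17) were found for Jun, Jund and Maff, all toward WT. Bright genes as a whole lay toward WT, as given below for Jun. Of the 3 genes, Jun alone came to lie above the median of all genes in any of 13 other settings, by 0.028 with the normexp background correction.

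Of the EGR, KLF, NR4A and MYC transcription factors, 8 of 9 were measured, and 7 of these had a difference above 0, with a median of 0.18. Egr1, a zinc finger factor induced by growth factors, was at 5.36 against 5.16 (0.20). Egr2 was at 0.79 against 0.39 (0.40), whereas the signals of Egr3, 3.96 against 2.92 before scaling, were background. Nr4a1, an orphan nuclear receptor, was at 7.05 against 6.65 (0.40). Its relative Nr4a2 differed by 0.04, or by −0.14 on a second probe. Myc, a growth-promoting factor, was at 3.58 against 3.10 (0.48), and the 2 spots of its probe gave 0.47 and 0.50. The KLF factors stayed closer together: Klf2 differed by 0.09, Klf4 by −0.03 and Klf6 by 0.16. Myc, Nr4a1, Egr2 and Egr1 thus lay higher in Mob1DKO by more than 2 technical SDs, and the KLF genes and Nr4a2 within it. Egr2, with a mean level of 0.59, lay near the 75th percentile, below which the technical SD was 0.36.

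The feedback group holds genes whose products damp or respond to the same signals, and it contained both ends of the range. Ier3, an anti-apoptotic early response gene, was at 5.25 against 4.61, a difference of 0.64 or 1.56-fold. It was the only member past 1.5-fold, where 8.08% of all measured genes were higher by that much and 6.75% lower; among genes above the 75th percentile these shares were 2.52% and 3.22%. Ier5, a regulator of heat shock factor 1, was at 3.66 against 3.15 (0.52), but its second probe gave 2.67 against 2.52 (0.15). Ier2 differed by 0.12. Dusp1, the phosphatase that switches off MAP kinases, was at 4.37 against 4.71 (−0.35), the lowest value of all members. Zfp36, which encodes the mRNA-destabilising protein tristetraprolin, was at 1.19 against 1.35 (−0.15). Gadd45b, a stress sensor, differed by 0.29, the anti-proliferative gene Btg2 by 0.26 and the circadian gene Per1 by 0.23. In this group 6 of 8 differences lay above 0, with a median of 0.24. Of the 3 genes whose windows hold the cyclic AMP response element, Dusp1 and Maff differed by −0.35 and −0.21 and Btg2 by 0.26.

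The cytosolic heat shock proteins formed the group with the highest median, 0.35 over 7 measured genes, 5 of them above 0. Hsp90aa1, the inducible HSP90, was at 7.48 against 7.06 (0.42). Hsph1, an HSP110 that acts as exchange factor of HSP70, was at 4.45 against 4.06 (0.39), with 0.36 on a second probe. Dnajb1, an HSP40 co-chaperone, was at 6.39 against 6.01 (0.38). Its window holds no match to the heat shock element letters. Hspa1a, the stress-inducible HSP70, was at 6.74 against 6.39 (0.35). Hspa1a and Hspa1b encode nearly the same RNA, so this probe may report both. The HSP70 co-chaperone Bag3 was at 4.83 against 4.57 (0.25). These 5 genes were 1.19-fold to 1.33-fold higher in Mob1DKO.

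The other two, Hspa8 and Hspb1, lay toward WT by less than 2 technical SDs. Hspb1, a small heat shock protein abundant in epithelium, was at 8.34 against 8.45 (−0.12). Hspa8, the constitutive HSP70, was at 9.21 against 9.24 (−0.03) on its brightest probe. Its 2 dimmer probes gave 7.67 against 7.45 (0.22) and 6.00 against 5.63 (0.37), so the probe decides the sign of this gene. The mitochondrial chaperonins Hspd1 (HSP60) and Hspe1 (HSP10) fold proteins together and share the promoter stretch shown above. Hspd1 was at 5.04 against 4.83 (0.21) and Hspe1 at 5.17 against 4.93 (0.24). The other Hspe1 probes differed by 0.01 and 0.07. Over all 9 measured heat shock genes, 7 differences lay above 0 and the median was 0.25. Over the 25 immediate early genes, 17 lay above 0 and the median was 0.12. Whether the 2 groups differ was not tested.

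**Figure D3:**
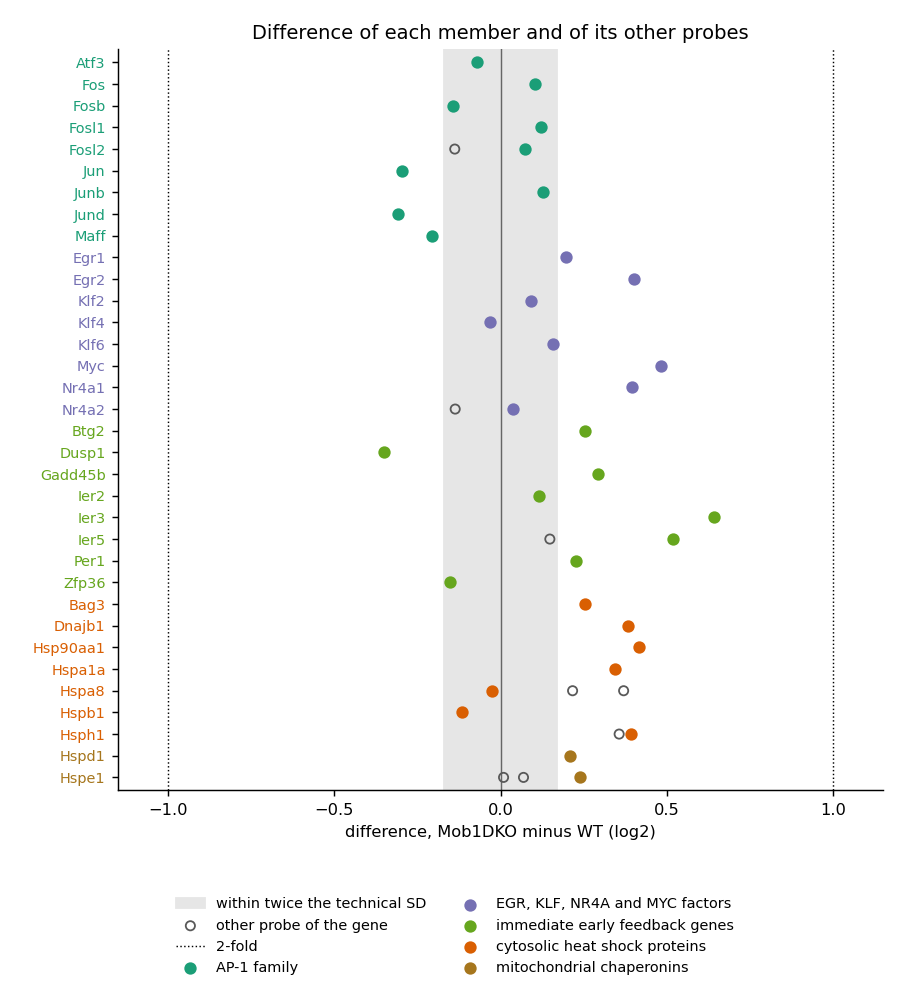
Difference Mob1DKO minus WT (log2) of 34 members, coloured by role, with other probes of the same gene as open circles; grey marks 2 technical SDs either side of 0 and dotted lines mark 2-fold. All points lie between the dotted lines, and 7 of 9 heat shock genes lie to the right of the grey band.

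Members with several probes were used to compare probes of 1 gene. In the 6 such genes the gap between the highest and the lowest probe difference ran from 0.037 (Hsph1) to 0.40 (Hspa8), with a median of 0.22. The median gap was 0.24 over 3406 genes with several such probes. The interquartile range of the members' differences ran from −0.03 to 0.33. A count by the spread of repeated spots alone used the single-spot SD, also for the means of 10 Fos spots and 2 Myc spots. By that SD, 16 of the 34 members were higher and 4 lower by more than 2 technical SDs. The same count over the 8437 genes above the 75th percentile gave 25.1% higher and 20.9% lower, 46.0% in all. Of the 16, 7 were heat shock genes and 9 immediate early genes, and all 4 lower ones were immediate early genes.

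Brightness moved with these differences. The median difference of all genes was 0.03 at mean levels from 0 to 2, −0.05 from 6 to 8 and −0.20 at 8 or more. Hspa8, Hspb1 and Jun were the 3 members at 8 or more, and all 3 differed toward WT. A loess fit of difference on level, which takes out this trend, gave 0.15 for Hspa8, 0.03 for Hspb1 and −0.13 for Jun. The 8 members between 6 and 8 had a median of 0.32, and Hsp90aa1, Nr4a1, Dnajb1, Hspa1a, Gadd45b and Klf6 lay above the median of all genes there while Jund and Atf3 lay below it.

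**Figure D4:**
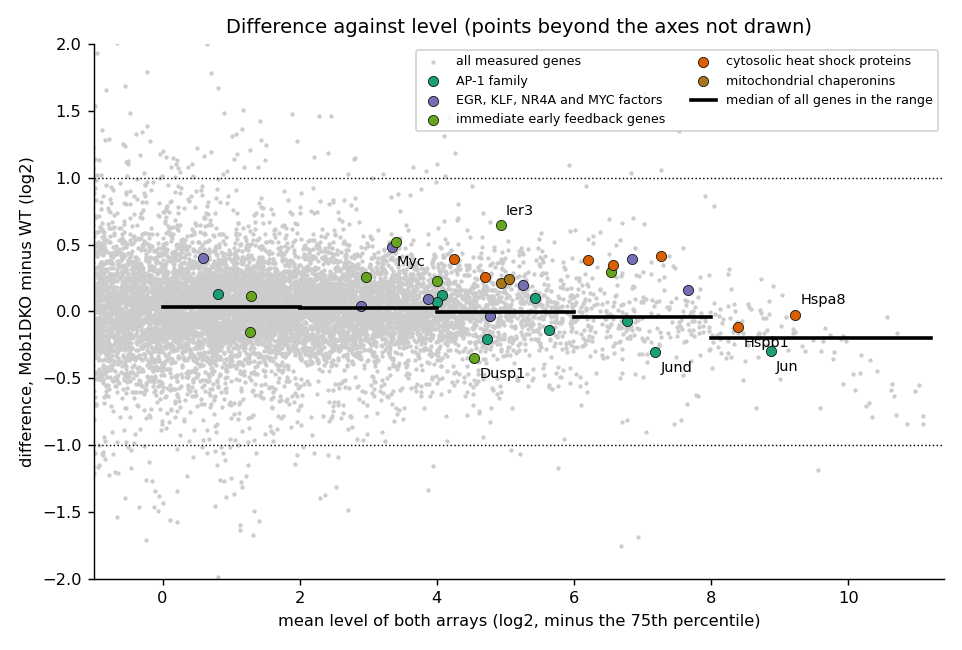
Difference Mob1DKO minus WT (log2) against the mean level of both arrays (log2, minus the 75th percentile) for all measured genes (grey) and 34 members (coloured by role); black bars are the median of all genes in each range of level and dotted lines mark 2-fold. The bar falls to −0.20 at levels of 8 or more, where Hspa8, Hspb1 and Jun lie.

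Further genes of the same pathways were read from lists of related genes. The calls below stand beside a share of 6.70% called among all measured genes. Of 40 other immediate early genes, 1 was called higher and none lower, with a median of 0.08. The called gene was Egr4, at −2.56 against −4.93; its WT signal was not well above background, and it was at least 1.85-fold higher. Of 20 upstream regulators, which include the kinases and the factors SRF, ELK and CREB, 1 was called lower and none higher, with a median of −0.0015. It was Elk4, a partner of SRF, at 0.36 against 1.47 (−1.11), although its other probes differed by −0.35 and −0.45. Of 11 measured AP-1 and ATF partners, Batf2 alone was called, at −3.52 against −2.44 (−1.08), from faint signals on both arrays, and the median was 0.17.

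No gene was called among the other chaperones. The share called was 6.70% of all genes and 1.37% of genes above the 75th percentile, where most of these chaperones lay. The 35 measured cytosolic chaperones and co-chaperones had a median of 0.11, with 26 above 0. Their largest differences were those of Fkbp5, a glucocorticoid-induced HSP90 co-chaperone (0.59), and Bag4 (0.53). Bag4, at −1.41 against −1.94, lay below the 75th percentile, where the technical SD was 0.36. The 8 other mitochondrial chaperones had a median of −0.11, from −0.36 for the protease subunit Clpp to 0.20 for the mitochondrial HSP70 Hspa9. The 8 subunits of TRiC, the cytosolic chaperonin, had a median of 0.13, led by Cct6a (0.34) and Cct8 (0.19). The list of heat shock factors held Hsf1, Hsf2, Hsf4 and the factor-binding Hsbp1. Hsf1, the main stress-responsive factor, differed by −0.08 and Hsf4 by 0.71, the latter from a signal below the 75th percentile, where the technical SD was 0.36.

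Other cells in a preparation also express these genes, so their markers are given here. Of all measured genes, 6.70% were called. Of 9 leukocyte markers, 7 were measured and 3 (Cd79a, S100a8 and S100a9) were called higher in Mob1DKO from faint signals. All 3 failed the background flag in WT, and for S100a8 and S100a9 no bound on the fold could be given. Cd3e, Csf1r, Itgam and Lyz2, measured on both arrays, differed by −0.13, −0.01, −0.05 and −0.18. Ptprc, the pan-leukocyte marker, failed the background flag in both groups. The summed signal of the measured leukocyte markers, in units of the array's 75th percentile, was 489.6 against 529.4. It was carried by Itgam and by Lyz2, which alveolar type 2 cells also express. Of 10 endothelial markers, 5 were measured and none was called, with sums of 31.9 against 44.9; Cdh5, Cldn5, Erg, Tek and Tie1 failed the flag in both groups. Of 10 fibroblast and smooth muscle markers, Lum alone was called, higher in Mob1DKO, from a faint signal not well above background in WT. Of the 10 differences, 5 lay above 0 and 5 below, among the latter Acta2 (−0.97), Tagln (−0.97) and Col3a1 (−0.67). The sums were 115 against 133. Of 6 red cell markers, 5 were measured and all 5, related globins, were called lower, with sums of 1.33 against 14.3. The part of these cells, and of the epithelial differences given above, in the members' differences was not tested.

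The members' differences moved with the processing, most under the normexp background correction, where 27 of 34 moved by more than 1 technical SD. Relative to the median of all genes, the median of the heat shock genes ranged from 0.23 to 0.43 over the settings and that of the immediate early genes from 0.089 to 0.27. Of the 13 other settings, 4 leave these relative values as they are by construction, and the deposited value table nearly repeats quantile normalization. The background filters, the probe rules and leaving out outlier spots shift all members with 1 probe by the same amount. Only quantile normalization, the value table, loess and normexp could change such members relative to each other. Under the 9 settings that could change the relative values, 21 of the 34 members always lay above the median of all genes. A further 4 (Dusp1, Jund, Maff and Zfp36) always lay below it, and 9 lay on both sides. The 9 were Atf3, Fosb, Fosl2, Hspa8, Hspb1, Hspe1, Jun, Klf4 and Nr4a2. Ier3 ranged from 0.62 to 0.89, Hsp90aa1 from 0.39 to 0.54 and Dusp1 from −0.37 to −0.14, while Ier5 spanned 0.13 to 0.80.

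**Figure D5:**
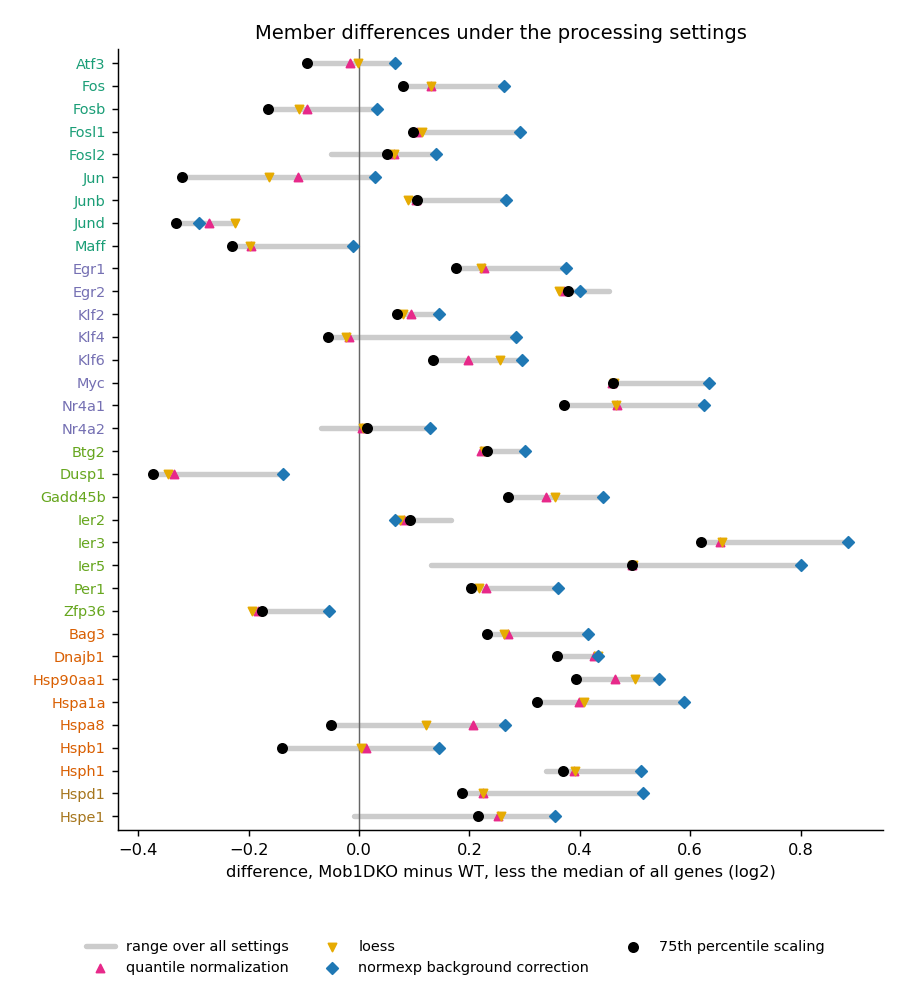
Difference Mob1DKO minus WT less the median of all genes (log2) for 34 members, under scaling on the 75th percentile (black) and other settings; the grey bar spans all 14 settings and 3 of them are marked. The bars of 21 members lie wholly above 0 and those of 4 wholly below.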

How the data were processed

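Cy3-labelled RNA of each group was hybridised to 1 Agilent array, per the labels' protocols. The deposited files hold an intensity for every spot, extracted with Agilent Feature Extraction 10.7.1.1 on a grid of build mm9, per the file headers, while the submitters' processing notes name 9.5.1.1. The authors' processed signal is background-subtracted within an array, with no normalization between arrays; the well-above-background and outlier flags are the scanner software's. The deposited value table holds linear intensity values with a median of 27.3 in both columns and the same quantiles; its making is not stated, and its columns matched their own arrays (r = 0.9998 and 0.9995, log2, across probes), so scale and direction are settled.

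Spots of a probe were averaged, control spots left out, and log2 minus the 75th percentile taken over 55681 probes. Probes were named by unversioned accession through a RefSeq gene table (GRCm38.p6); 27235 matched. A gene took its brightest probe, of those that passed the background flag in at least 1 group. Where the dim array was not well above background, the fold is a bound against the higher of its own level and the lowest level above background there. The members and lists were chosen with earlier results of these data known. All measured members are named; related lists by called genes, otherwise the 2 largest differences. Alternatives were other scalings (median, housekeeping genes, quantile, loess with span 0.3, spike-ins), normexp on the median spot signal with offset 50 (limma 3.58.1; no mean signal was in the files used), the value table, background filters, outlier spots, probe rules and a 1.5-fold rule. Calls were tested on simulated data, with planted changes larger than the 2-fold rule and technical noise only. Such data leave out the spread between animals and hybridisations. No test was run on the arrays; their number limits the precision. Promoter windows are RefSeq's.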

Additional observations from a re-analysis of the deposited data

How the results depend on the processing

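Under 11 of 13 other settings, no immediate early and no heat shock member was called in either direction. The exceptions were a rule of 1.5-fold, which called 1 immediate early member higher (Ier3), and scaling on the spike-in transcripts, which called all 25 immediate early and all 9 heat shock members higher along with 97.3% of all genes. Spike-in scaling moved the median of all genes to 2.19 and the medians of the immediate early and heat shock members to 2.29 and 2.43. Scaling on the housekeeping list moved the median of all genes to 0.16 and these medians to 0.25 and 0.39. Both shift every gene alike and leave the members' values relative to all genes as they were. Under the normexp background correction the medians were 0.27 and 0.43 with all genes at 0.00; the cause was not tested. The share of higher against lower calls over all genes was 572 to 439 at the 75th percentile and 99 to 173 under normexp. It was 174 to 198 with genes well above background on both arrays, and 801 to 1208 with no background filter. Of the 34 measured members, 27 moved by more than the technical SD under normexp, 10 under loess, 4 each under quantile normalization and the value table, 5 with the mean of a gene's probes and 2 with the probe of smallest difference. Scaling on the median, the background filters and leaving out outlier spots moved none by that much. The filters could not move a member, because all 34 were well above background on both arrays. No spot of a member was flagged as an outlier, so leaving such spots out could change only the scaling. Scaling on the median shifts every gene alike. No paired analysis was possible because each group holds 1 array; for the same reason no replicate could be left out. For a bright probe with 1 spot, a difference below about 0.17 is within 2 technical SDs; the 10 spots of Fos resolve less. Egr3 was too faint to compare.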
